A study of Mus musculus with 4 samples.

Results

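The collagen genes were taken as every row whose symbol consists of Col, a number, the letter a and a number, which gave 44 genes of 21878 in the deposited tables. They were sorted into 8 basement membrane genes (type IV with types XV and XVIII), 11 fibrillar genes, 9 FACIT genes (fibril-associated collagens with interrupted triple helices) and 16 others. RNA was sequenced in 4 libraries of mouse liver cells that had been cultured in transition and expansion media until they became progenitor-like, a state in which they divide. HepLPC (2 libraries) came from hepatocytes and NPC_LPC (2 libraries) from non-parenchymal cells of C57BL/6 mice. The age is given as 6 to 8 weeks in the sample labels and as 8 weeks in the protocol. The protocol lists tdTomato mice with AAV8-TBG-Cre, a virus whose promoter is active in hepatocytes, for the hepatocyte preparation, and AlbCreERT/R26GFP mice, in which the albumin promoter drives the inducible Cre, for the non-parenchymal preparation. With that assignment, mouse line and virus cannot be told apart from cell origin. The HepLPC samples carry a cell type label that lists non-parenchymal cells beside hepatocytes, and the groups were therefore taken from the sample titles. Of the hepatocyte genes, Alb had 41 and 2 counts and Cyp2e1 had 0 in HepLPC, while Hnf4a had 4233 and 4426 counts. Libraries held 17575998 to 20625957 counts, and 28 and 25 collagens had a count in HepLPC, against 30 and 29 in NPC_LPC. The series compared the expression profiles of the progenitor-like cells of these origins.

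Collagens are matrix proteins built as trimers of chains whose repeated glycines let them wind into a triple helix. Fibrillar collagens such as types I and III form the scar matrix of the injured liver, where stellate cells and other fibroblasts are the best known source. Type IV collagen forms the network of basement membranes, which epithelial and endothelial cells help to make, and FACIT collagens sit on the surface of fibrils. Chains are hydroxylated and folded in the endoplasmic reticulum, trimmed outside the cell and then crosslinked.

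The collagen genes with the highest mean FPKM over the 4 libraries were a neighbouring pair, so their start regions are shown first; in both HepLPC libraries Col18a1 stood above them. Col4a1 and Col4a2 encode the common chains of type IV collagen and are read in opposite directions on chromosome 8. In the RefSeq start windows (GRCm38.p6), which lie mostly upstream of the start, their start sites lay 21 bases apart, and the windows shared the 78 bases from 11312777 to 11312854. Capitals mark the shared bases, which appear in reverse complement in the other window.
Col4a1 (chr8:11312777-11313076, minus strand): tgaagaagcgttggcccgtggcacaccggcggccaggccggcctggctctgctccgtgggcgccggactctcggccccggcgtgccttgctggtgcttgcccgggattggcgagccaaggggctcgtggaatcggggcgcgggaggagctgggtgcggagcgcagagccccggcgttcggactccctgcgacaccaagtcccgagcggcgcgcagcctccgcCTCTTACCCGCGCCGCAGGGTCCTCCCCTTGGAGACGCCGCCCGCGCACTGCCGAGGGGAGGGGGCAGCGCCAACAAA
Col4a2 (chr8:11312555-11312854, plus strand): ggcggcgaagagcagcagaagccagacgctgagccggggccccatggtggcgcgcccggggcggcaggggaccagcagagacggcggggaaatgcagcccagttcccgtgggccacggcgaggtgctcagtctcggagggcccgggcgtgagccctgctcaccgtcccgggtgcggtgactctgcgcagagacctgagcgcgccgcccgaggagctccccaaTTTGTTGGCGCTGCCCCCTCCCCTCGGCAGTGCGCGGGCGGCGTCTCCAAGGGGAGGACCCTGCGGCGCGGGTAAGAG
Col4a5 and Col4a6, which encode chains of the other type IV networks, form a second divergent pair on chromosome X and are shown because their levels differed from each other. Their start sites were 1343 bases apart and the windows shared 0 bases. Capitals mark the GC box, GGGCGG on either strand.
Col4a5 (chrX:141475169-141475468, plus strand): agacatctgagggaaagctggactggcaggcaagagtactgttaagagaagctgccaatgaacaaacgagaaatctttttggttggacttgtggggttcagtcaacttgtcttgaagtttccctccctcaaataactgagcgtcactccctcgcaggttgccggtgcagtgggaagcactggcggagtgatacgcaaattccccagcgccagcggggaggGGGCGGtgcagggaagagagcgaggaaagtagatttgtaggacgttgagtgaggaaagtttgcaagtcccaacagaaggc
Col4a6 (chrX:141474027-141474326, minus strand): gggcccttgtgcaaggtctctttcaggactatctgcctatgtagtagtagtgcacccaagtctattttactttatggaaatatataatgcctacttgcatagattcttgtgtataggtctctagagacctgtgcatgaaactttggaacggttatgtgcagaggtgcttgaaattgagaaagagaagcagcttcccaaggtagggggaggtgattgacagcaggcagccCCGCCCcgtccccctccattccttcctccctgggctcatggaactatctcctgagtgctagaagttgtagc
Counting both strands, the CCAAT box (CCAAT) occurred 1 time each in the Col4a1, Col4a2 and Col4a5 windows and 0 times in that of Col4a6. The GC box occurred 1, 3, 1 and 1 times in the same order. The run CCCTCCCC occurred 1 time in each window except that of Col4a6, and the TATA box (TATAAA) in none of the 4. Among the 32851 windows in the table, 37.4% held CCAAT, 35.7% GGGCGG, 10.8% CCCTCCCC and 13.6% TATAAA. These matches describe letters and not binding.

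Collagen transcripts as a whole were lower in HepLPC and came mostly from basement membrane genes in all 4 libraries. The 44 genes summed to 71.8 and 140.5 FPKM (fragments scaled to transcript length and to depth) in HepLPC replicates 1 and 2, against 267.7 and 412.7 FPKM in NPC_LPC replicates 1 and 2. In CPM the sums were 884 and 1527 in HepLPC and 3065 and 5035 in NPC_LPC. CPM are counts scaled to library size with the TMM factors given below, and not to transcript length. The groups did not overlap on either scale, and the mean CPM sum was 3.36-fold lower in HepLPC. Basement membrane genes made up 91.8% and 92.96% of the collagen FPKM in HepLPC, against 79.8% and 87.7% in NPC_LPC. The FACIT share was 1.68% and 1.17% in HepLPC and 4.90% and 6.92% in NPC_LPC. With 2 libraries against 2, an exact two-sided permutation test of a sum cannot go below p = 0.333, so the sums are given without a test. In bulk RNA, fewer cells of a type and less RNA per cell cannot be told apart.

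**Figure D1:**
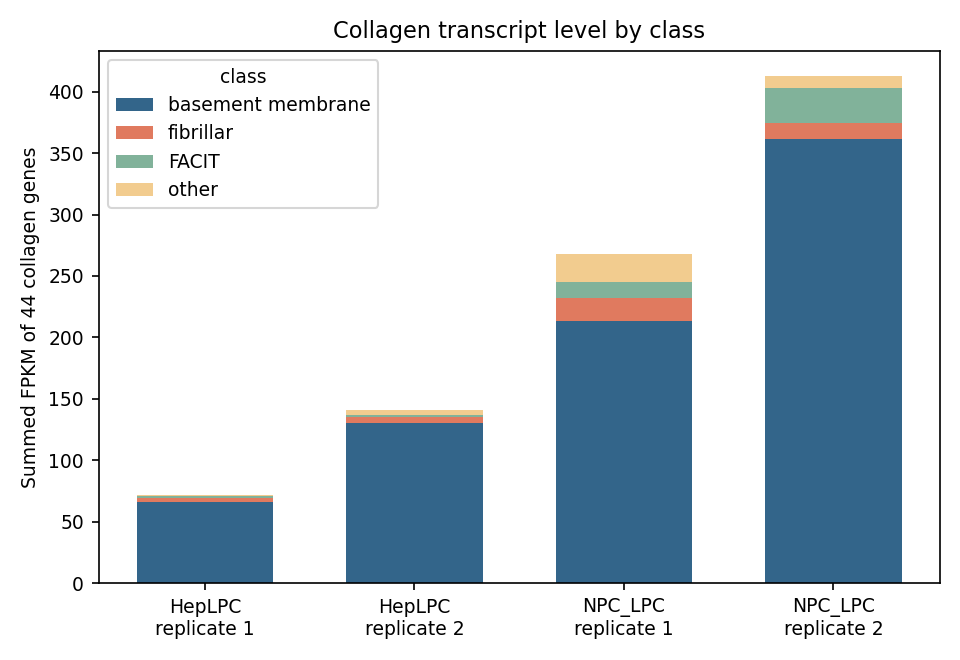
Summed FPKM of the 44 collagen genes (y axis) in each library, with HepLPC left of NPC_LPC and colours for the 4 collagen classes. The bars reach 71.8 and 140.5 FPKM in HepLPC and 267.7 and 412.7 FPKM in NPC_LPC, and basement membrane genes fill most of each.

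Of the 44 genes, 19 had enough counts for the edgeR quasi-likelihood test across all genes. The test called 1 of the 19 lower in HepLPC (adjusted p under 0.05), where 0.203% of the 12332 tested genes were called lower, and 0 higher, where 0.227% were. In either direction 0.43% of tested genes were called. The collagen called was Col12a1. At an unadjusted edgeR p under 0.05, 9 collagens were lower and 1 higher, against 11.5% and 10.4% of all tested genes. DESeq2 called 9 lower and 1 higher, against 6.5% and 5.81%, and limma-voom called 0 of them. Both HepLPC libraries lay below both NPC_LPC libraries in 12 of the 19 and above in 2, against 28.6% and 27.9% of tested genes. The fitted change was below 0 for 17 of the 19, against 50.2% of tested genes. The median log2 fold change (HepLPC over NPC_LPC) was -1.36 over the 19 and -0.0030 over all tested genes. Col11a1, the 1 higher at the unadjusted p and by DESeq2, passed the count filter only through the HepLPC libraries, where it is high. Its place in these counts follows in part from the filter. Over all 44 members, tested or not, both HepLPC libraries were below in 14 and above in 2. The share over all rows, tested or not, was not computed. The members below beyond the 12 tested had few counts. They were Col5a3, with 0 and 0 counts in HepLPC and 10 and 6 in NPC_LPC, and Col23a1, with 0 and 1 against 6 and 5.

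**Figure D2:**
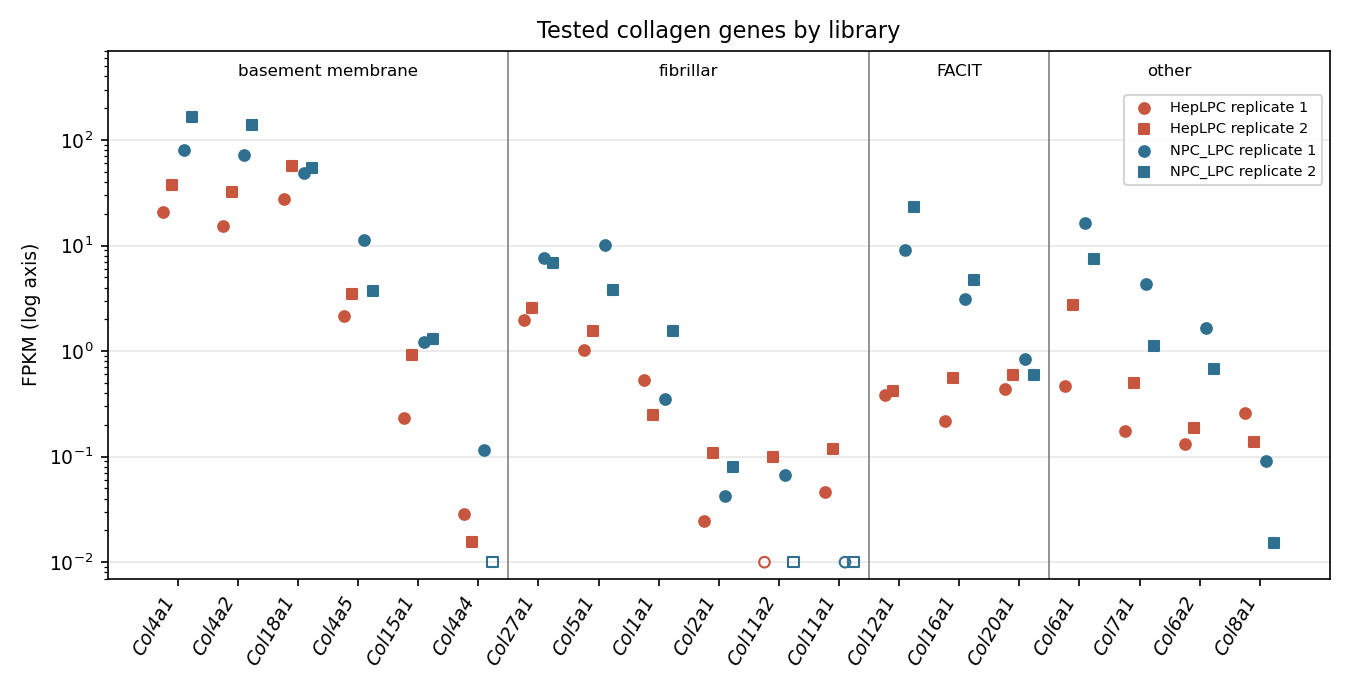
FPKM on a log axis for the 19 tested collagen genes, grouped by class, with HepLPC points (red) left of NPC_LPC points (blue); circles are replicate 1 and squares replicate 2. Open points stand for values under 0.01 FPKM, and both HepLPC points lie below both NPC_LPC points for 12 of the genes when scaled counts are compared.

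**Figure D3:**
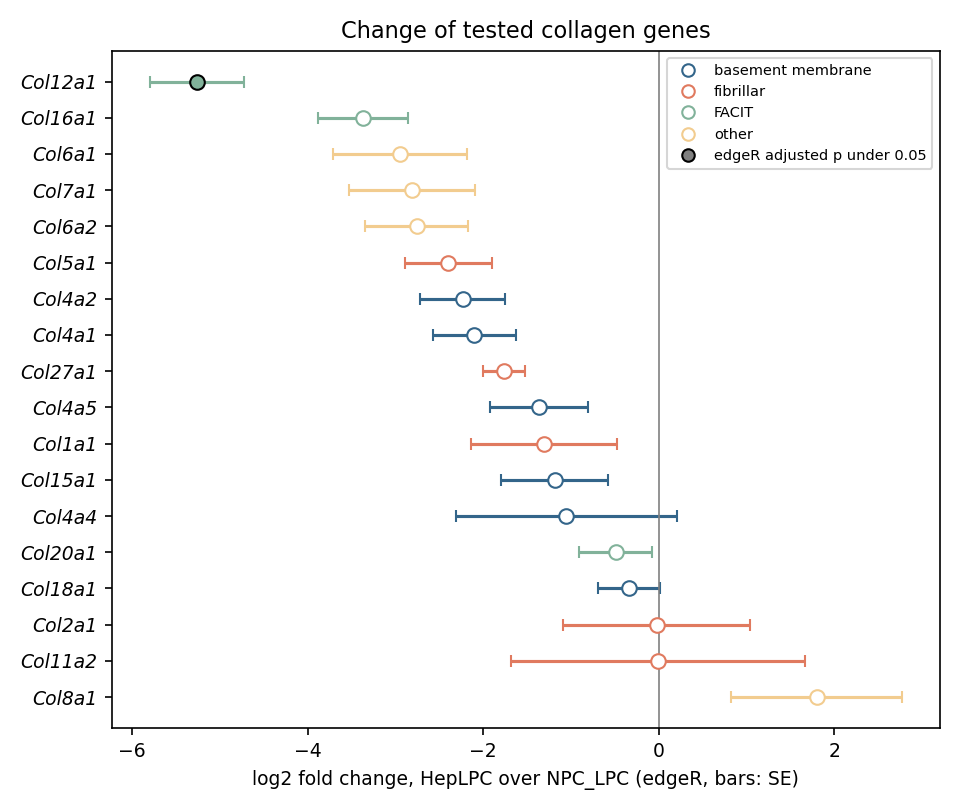
Log2 fold change, HepLPC over NPC_LPC, with the edgeR standard error as bars, for the 18 tested collagen genes with counts in both groups. Only Col12a1, at -5.26, is filled, which marks an edgeR adjusted p under 0.05.

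Basement membrane collagens carried the bulk of the level, and none of them passed the edgeR test. Col4a1 (chromosome 8, 11198423 to 11312889) had 274 and 448 CPM in HepLPC replicates 1 and 2, against 995 and 2102 CPM in NPC_LPC replicates 1 and 2. Col4a2 (chromosome 8, 11312805 to 11449287) was at 162 and 294 CPM in HepLPC, against 699 and 1444 CPM in NPC_LPC. In both genes every NPC_LPC library was above every HepLPC library, and replicate 2 was the higher library of each group. The log2 fold changes were -2.10 (SE 0.47, edgeR adjusted p = 0.0978) for Col4a1 and -2.23 (SE 0.48, edgeR adjusted p = 0.0938) for Col4a2, while DESeq2 called both (adjusted p = 8.76e-05 and 4.39e-05). Per length the pair stayed close: the FPKM of Col4a1 over that of Col4a2 was 1.37 and 1.16 in HepLPC and 1.12 and 1.19 in NPC_LPC. Both chains enter the same trimer. Their exons share 22 bases on opposite strands in GENCODE, 0.295% of the exon bases of Col4a1.

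Col4a5 is a chain of the basement membranes of kidney, and of several epithelia, and is mutated in Alport syndrome. It was at 21.9 and 34.6 CPM in HepLPC, against 109 and 36.5 CPM in NPC_LPC, so NPC_LPC replicate 1 stood above the other 3 libraries. Its log2 fold change was -1.36 (SE 0.56, edgeR adjusted p = 0.232), and -0.35 without that library. Per length it reached 0.103 and 0.0933 of the Col4a1 level in HepLPC, and 0.139 and 0.0225 of it in NPC_LPC. Its neighbour Col4a6 was not tested, with 4 and 41 counts in HepLPC and 2 and 5 in NPC_LPC. Thus the chromosome X pair was uneven, with Col4a5 above Col4a6 in FPKM in every library. Col4a4, a partner of Col4a3 and Col4a5 in the kidney network, had 12 and 8 counts in HepLPC and 40 and 3 in NPC_LPC, and Col4a3 was not tested, with 0 and 5 counts in HepLPC and 31 and 4 in NPC_LPC. For the pair of Col4a3 and Col4a4, NPC_LPC replicate 1 was again the highest library, and the edgeR adjusted p of Col4a4 was 0.654.

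Col18a1, whose product carries the endostatin fragment at its end, differed less by value than the type IV pair. It was at 343 and 626 CPM in HepLPC, against 566 and 661 CPM in NPC_LPC, with groups that overlapped (edgeR log2 fold change -0.34 with SE 0.35, adjusted p = 0.602). In FPKM it stood above Col4a1 in both HepLPC libraries, at 1.31 and 1.502 times its level, and below it in both NPC_LPC libraries, at 0.601 and 0.328 times. Its fitted direction turned without HepLPC replicate 1 (log2 fold change 0.043). Col15a1, the related multiplexin, was at 2.89 and 9.58 CPM in HepLPC, against 13.8 and 14.6 CPM in NPC_LPC (edgeR log2 fold change -1.19, adjusted p = 0.317). It lies on chromosome 4, where the median over 727 tested genes was -0.61, and with the chromosome medians taken out its log2 fold change was -0.70.

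Among fibrillar collagens the abundant genes were Col27a1 and Col5a1, while the scar collagen Col1a1 was less abundant and Col1a2 and Col3a1 had counts in 1 library alone. Col27a1, a fibrillar collagen known from cartilage, was at 29.4 and 35.0 CPM in HepLPC, against 115 and 103 CPM in NPC_LPC. The libraries within each group were close and the groups were well apart (edgeR log2 fold change -1.76 with SE 0.24, adjusted p = 0.0570; DESeq2 adjusted p = 4.12e-07). Col27a1 lies on chromosome 4 as well, and with the chromosome medians taken out its log2 fold change was -1.19 (edgeR adjusted p = 0.0842). Col5a1, a chain of the collagen that starts and thins fibrils, was at 15.4 and 20.8 CPM in HepLPC, against 137 and 53.5 CPM in NPC_LPC. Both NPC_LPC libraries were higher, replicate 1 the more so (edgeR log2 fold change -2.40 with SE 0.50, adjusted p = 0.0879; DESeq2 adjusted p = 9.04e-05). Its exons share 99 and 113 bases, 1.17% and 1.33% of their length, with 2 genes on the opposite strand, and whether the counting used strand is not stated.

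The partners of these chains were scarce. Col5a2, which joins Col5a1 in the common type V trimer, had 3 and 4 counts in HepLPC and 0 and 25 in NPC_LPC, and Col5a3 had 0 and 0 in HepLPC and 10 and 6 in NPC_LPC. Col1a1 was at 4.05 and 1.80 CPM in HepLPC, against 2.74 and 11.8 CPM in NPC_LPC, with overlapping groups (edgeR log2 fold change -1.31 with SE 0.83, adjusted p = 0.404). Without NPC_LPC replicate 2 its log2 fold change was 0.094. Col1a2, the other chain of type I collagen, had 28 counts in NPC_LPC replicate 2 and 0 in the other 3 libraries. Col3a1, the type III chain, had 21 counts in the same library and 0 in the others.

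Markers of stellate cells and myofibroblasts, 12 genes, summed to 12.4 and 8.96 CPM in HepLPC, against 4.44 and 5.99 CPM in NPC_LPC. Reln carried that order, at 8.78 and 5.41 CPM in HepLPC against 0.494 and 1.14 CPM in NPC_LPC, and the other 11 markers summed to 3.61 and 3.55 CPM in HepLPC and 3.95 and 4.85 CPM in NPC_LPC. Of the 12, 5 could be tested and 0 passed edgeR over all genes. Of the 5, 1, again Reln, was higher in HepLPC at an unadjusted edgeR p under 0.05 and by DESeq2, against 10.4% and 5.81% of all tested genes. Lrat, Hand2 and Lum were at 0 in all 4 libraries, and Pdgfrb and Ngfr had at most 3 counts. Acta2, the smooth muscle actin of myofibroblasts, had 46 counts in NPC_LPC replicate 2 and 0 elsewhere. The same library held all counts of Col1a2 and Col3a1 and most of those of Col5a2. Of the 12 markers, 2 (Acta2 and Tagln) were highest there, while Des, Pdgfra and Rgs5 were lowest there. Des had 14 and 24 counts in HepLPC and 13 and 3 in NPC_LPC. Pdgfra had 12 and 17 in HepLPC and 7 and 0 in NPC_LPC, and Rgs5 had 20 and 17 against 22 and 4. The part of such cells in the Col1a2, Col3a1 and Col5a2 counts of that library was not tested. Without that library, edgeR called 3 collagens lower in HepLPC, namely Col12a1, Col5a1 and Col7a1, and 0.477% of the table lower.

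Apart from Col27a1, the cartilage-type fibrillar collagens were at trace level. Col11a1, a chain of type XI collagen, had 11 and 30 counts in HepLPC replicates 1 and 2 and 0 in both NPC_LPC libraries. Against a floor of 3 counts per library, it was at least 7.35-fold higher in HepLPC. No p is given for it, since it passed the count filter only through the HepLPC libraries, where it is high. Col2a1 had 3 and 19 counts in HepLPC and 13 and 11 in NPC_LPC, and Col11a2 had 0 and 18 in HepLPC and 16 and 3 in NPC_LPC. Col2a1 lies on chromosome 15, where the median log2 fold change over 477 tested genes was 0.65. Its edgeR log2 fold change was -0.023, and -0.75 with the chromosome medians taken out. Col24a1 was not tested, with at most 1 count in a library. Aggrecan (Acan), the cartilage proteoglycan, had 2333 and 214 counts in HepLPC against 0 and 3 in NPC_LPC. It passed the count filter only through the HepLPC libraries, where it is high, and no p is given for it. From the group totals of 2547 and 3 counts the ratio was 913 (95% interval 312 to 4428, counting error only). The interval pools the libraries of a group and leaves out the spread between them, with Acan at 129.6 and 12.1 CPM in HepLPC. The chondrocyte markers summed to 139.5 and 19.7 CPM in HepLPC, against 5.54 and 4.01 CPM in NPC_LPC, most of it Acan in HepLPC, with Matn1 and Chad at 0 in all libraries. The part of such cells was not tested.

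FACIT collagens held the only gene called and the largest fall among the tested collagens. Col12a1 (chromosome 9, 79598987 to 79721141) encodes a long collagen that binds type I fibrils in tendon, ligament and other loaded tissue. It had 8.28 and 8.51 CPM in HepLPC replicates 1 and 2, from 149 and 151 counts, against 182 and 461 CPM in NPC_LPC replicates 1 and 2, from 3319 and 9307 counts. Both HepLPC libraries were alike and far below either NPC_LPC library, and the NPC_LPC libraries differed 2.53-fold. Its mean was 38.3-fold lower in HepLPC (edgeR log2 fold change -5.26 with SE 0.54, adjusted p = 0.0413; DESeq2 adjusted p = 6.5e-26). In FPKM, Col12a1 stood at 0.0183 and 0.0113 of the Col4a1 level in HepLPC, against 0.113 and 0.141 of it in NPC_LPC. The edgeR call was lost without HepLPC replicate 1 (adjusted p = 0.168) and without HepLPC replicate 2 (adjusted p = 0.203), with log2 fold changes of -5.22 and -5.28. It held without NPC_LPC replicate 1 (log2 fold change -5.76) and without NPC_LPC replicate 2 (log2 fold change -4.44). It was also lost with limma-voom (adjusted p = 0.0647) and in limma on log2(FPKM + 1) (adjusted p = 0.0577).

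Col16a1, a FACIT collagen found near basement membranes and fibrils, was at 2.78 and 6.42 CPM in HepLPC, against 38.2 and 56.7 CPM in NPC_LPC. Both NPC_LPC libraries exceeded both HepLPC libraries (edgeR log2 fold change -3.37 with SE 0.51, adjusted p = 0.0633; DESeq2 adjusted p = 9.56e-09). It also lies on chromosome 4, and with the chromosome medians taken out its log2 fold change was -2.84 (edgeR adjusted p = 0.0618). Col20a1 differed little, at 6.00 and 7.94 CPM in HepLPC against 11.3 and 8.32 CPM in NPC_LPC (edgeR log2 fold change -0.49 with SE 0.42, adjusted p = 0.521). The other 6 FACIT genes were too low to test. Col9a1, Col9a2 and Col19a1 had no count, Col9a3 had 5 to 9 counts in each library, Col22a1 had at most 3, and Col14a1 had 11 counts in HepLPC replicate 1 alone.

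In the remaining class the beaded-filament collagen VI and the anchoring-fibril collagen VII were lower in HepLPC by value, and none passed the edgeR test. Col6a1 was at 3.55 and 15.8 CPM in HepLPC, against 100.3 and 49.0 CPM in NPC_LPC (edgeR log2 fold change -2.95 with SE 0.76, adjusted p = 0.119). Col6a2, its neighbour on chromosome 10, was at 1.33 and 1.92 CPM in HepLPC, against 14.97 and 7.08 CPM in NPC_LPC (edgeR log2 fold change -2.76 with SE 0.58, adjusted p = 0.0906). In both genes NPC_LPC replicate 1 was the highest library. Per length Col6a1 stood above Col6a2 in every library, by 3.56 and 14.8 times in HepLPC and by 9.91 and 11.1 times in NPC_LPC. Col6a3, which completes the common type VI trimer with them, had 9 counts in HepLPC replicate 1 and 0 in the other 3 libraries, and Col6a4 and Col6a6 had no count.

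Col7a1, the chain of the fibrils that anchor the epidermal basement membrane, was at 4.05 and 8.96 CPM in HepLPC, against 71.1 and 20.2 CPM in NPC_LPC (edgeR log2 fold change -2.81 with SE 0.72, adjusted p = 0.117). Groups did not overlap, and NPC_LPC replicate 1 was again the higher library, without which its log2 fold change was -1.62. DESeq2 called Col6a1, Col6a2 and Col7a1 lower (adjusted p = 4.16e-04, 0.00117 and 7.49e-04). Col8a1, a short-chain network collagen of vessels and of the cornea, went the other way by value, with 31 and 16 counts in HepLPC against 11 and 3 in NPC_LPC (edgeR log2 fold change 1.80 with SE 0.97, adjusted p = 0.338). The other 12 members were not tested. Col10a1, Col25a1, Col6a4 and Col6a6 were at 0 throughout. Col26a1 reached 24 counts in NPC_LPC replicate 1, and the remaining 7, among them Col17a1 of the epithelial hemidesmosome with 0 and 2 counts in HepLPC and 2 and 4 in NPC_LPC, stayed at or below 9 counts in every library.

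The libraries of a group differed by collagen. In HepLPC, replicate 2 exceeded replicate 1 in 16 of the 19 tested genes, with a median CPM ratio of 1.61. In NPC_LPC, replicate 2 exceeded replicate 1 in 7 genes (Col4a1, Col4a2, Col18a1, Col15a1, Col1a1, Col12a1 and Col16a1), and replicate 1 exceeded replicate 2 in 11. Col11a1 had no count in either. The difference between origins was therefore widest against NPC_LPC replicate 2 for the type IV pair, Col12a1 and Col16a1, and against NPC_LPC replicate 1 for types V, VI and VII. Without NPC_LPC replicate 1, edgeR called Col12a1, Col16a1, Col4a1 and Col4a2 lower, and the share called lower over the table was then 1.73%. The fitted sizes of genes that edgeR did not call shifted as well. Without NPC_LPC replicate 1 the log2 fold change was -1.55 for Col5a1, -2.32 for Col6a1, -2.10 for Col6a2 and 3.10 for Col8a1. Without NPC_LPC replicate 2 it was -1.46 for Col4a1, -1.62 for Col4a2, -3.45 for Col7a1 and 1.11 for Col8a1. Without HepLPC replicate 2 it was -4.39 for Col6a1, -3.49 for Col7a1, -4.09 for Col16a1 and -2.29 for Col15a1, and without HepLPC replicate 1 it was -2.23 for Col6a1 and -0.55 for Col15a1.

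Genes that make and process collagen were examined from a list of 31. Of these 27 were tested, edgeR called 0, and 1 was higher and 8 lower at an unadjusted p under 0.05, where DESeq2 called 1 higher and 5 lower. Over all tested genes 10.4% were higher and 11.5% lower at that unadjusted p, and DESeq2 called 5.81% higher and 6.5% lower. The median log2 fold change was -0.35. Pcolce, which enhances removal of the C-terminal propeptide, was at 70.3 and 68.8 CPM in HepLPC, against 21.8 and 24.2 CPM in NPC_LPC (edgeR log2 fold change 1.60 with SE 0.25, adjusted p = 0.0656). Bmp1, the proteinase that removes that propeptide, had the opposite sign, at 53.1 and 146.8 CPM in HepLPC against 446 and 350.3 CPM in NPC_LPC (edgeR log2 fold change -1.99 with SE 0.51, adjusted p = 0.117). Creb3l1, a membrane-bound transcription factor that acts on collagen genes in bone, was at 6.28 and 5.97 CPM in HepLPC, against 30.1 and 21.7 CPM in NPC_LPC (edgeR log2 fold change -2.08 with SE 0.35, adjusted p = 0.0740). DESeq2 called all 3 (adjusted p = 6.98e-06, 0.00112 and 5.57e-05).

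Serpinh1, the collagen chaperone HSP47, was picked with its values known. It was at 71.8 and 483 CPM in HepLPC, against 0.439 and 306 CPM in NPC_LPC, so a single library, NPC_LPC replicate 1, held 8 counts of it. That library had 80.6 FPKM of Col4a1 beside 0.191 FPKM of Serpinh1, while NPC_LPC replicate 2 had 164 FPKM of Col4a1 and 119.8 FPKM of Serpinh1. Serpinh1 was not called between the origins (edgeR adjusted p = 0.833). P4hb, a subunit of prolyl hydroxylase, varied little by comparison, at 1032 and 1066 CPM in HepLPC against 1047 and 971 CPM in NPC_LPC (edgeR adjusted p = 0.920).

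**Figure D4:**
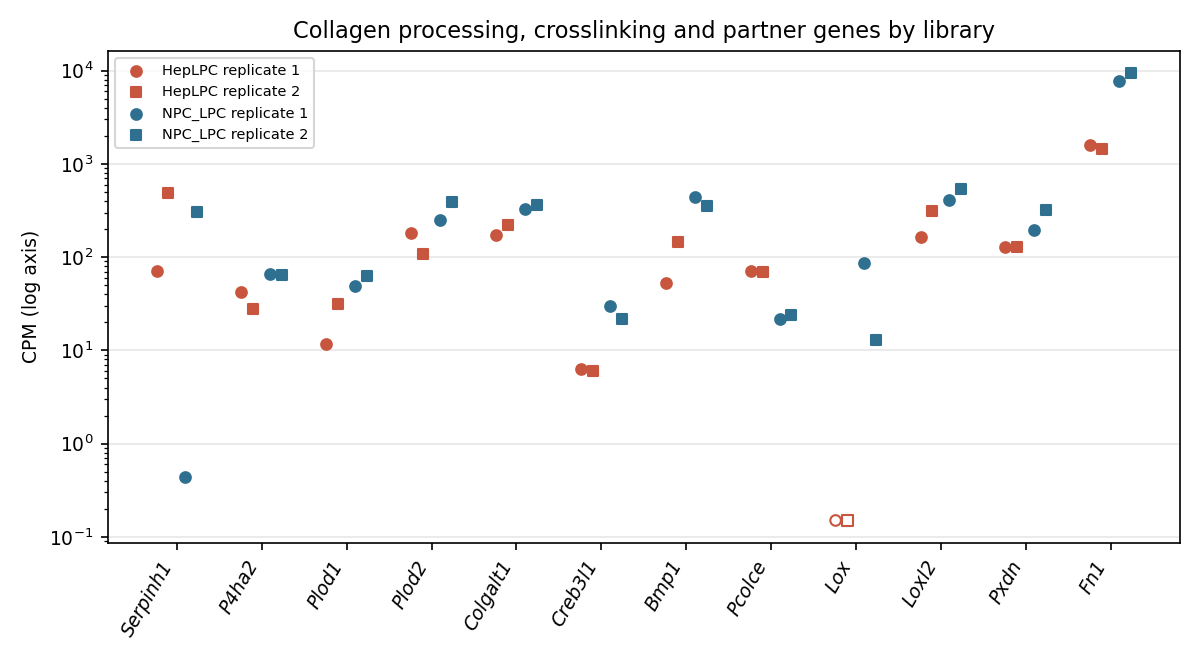
CPM on a log axis for 12 genes of collagen folding, hydroxylation, cleavage, crosslinking and assembly, with HepLPC points (red) left of NPC_LPC points (blue); circles are replicate 1 and squares replicate 2. Open points lie under 0.15 CPM, and Serpinh1 in NPC_LPC replicate 1 stands at 0.439 CPM. The 12 genes were picked, some with their values known, and do not stand for their lists. Over the 5 related lists (synthesis, crosslinking, receptors, turnover and fibril-associated), both HepLPC libraries lay below both NPC_LPC libraries in 21 of 51 tested genes. They lay above in 1, and the shares of all tested genes were 28.6% below and 27.9% above.

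Of the 6 crosslinking genes, edgeR called 0, 3 were lower at an unadjusted p under 0.05, and DESeq2 called 2 lower, against 11.5% and 6.5% of all tested genes. Lox, lysyl oxidase, had 1 and 0 counts in HepLPC, against 1563 and 262 in NPC_LPC. From the group totals of 1 and 1825 counts, NPC_LPC over HepLPC came to 1698 (95% interval 304 to 67100, counting error only). The interval pools the libraries of a group and leaves out the spread between them, with Lox at 85.7 and 13.0 CPM in NPC_LPC. Lox passed the count filter only through the NPC_LPC libraries, where it is high, so its place in these counts follows in part from the filter and no p is given for it. Loxl2, which also acts on type IV collagen, was at 164 and 316 CPM in HepLPC and 412 and 542 CPM in NPC_LPC (edgeR adjusted p = 0.211). Pxdn, the peroxidase that crosslinks type IV collagen, was at 129.1 and 129.95 CPM in HepLPC and 196 and 319 CPM in NPC_LPC (edgeR adjusted p = 0.155).

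The receptor list had 12 members, of which 7 were tested and edgeR and DESeq2 called 0, with 1 lower at an unadjusted p under 0.05, a share near the 11.5% over all tested genes. Itgb1, the shared chain of the collagen-binding integrins, was at 717 and 901 CPM in HepLPC and 1043 and 2911 CPM in NPC_LPC (edgeR adjusted p = 0.225). Its partner Itga2 was at 217 and 112 CPM in HepLPC and 187 and 291 CPM in NPC_LPC, and the receptor kinase Ddr1 at 97.9 and 176 CPM in HepLPC and 182 and 197 CPM in NPC_LPC (edgeR adjusted p = 0.475 and 0.447). Ddr2, the receptor kinase of fibrillar collagen in mesenchyme, was not tested, with 2 and 1 counts in HepLPC and 7 and 34 in NPC_LPC.

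Of 12 turnover genes, 7 were tested, edgeR called 0, and 1 was lower at an unadjusted p under 0.05 and by DESeq2, against 11.5% and 6.5% of all tested genes. That was Timp3, a matrix-bound inhibitor of metalloproteinases, at 58.6 and 61.8 CPM in HepLPC against 143 and 555 CPM in NPC_LPC (edgeR adjusted p = 0.115; DESeq2 adjusted p = 2.57e-04). Timp2 was at 510.3 and 670.1 CPM in HepLPC and 829 and 876 CPM in NPC_LPC, and Timp1 at 47.5 and 38.4 CPM in HepLPC and 43.7 and 64.3 CPM in NPC_LPC (edgeR adjusted p = 0.310 and 0.551). Of 14 fibril-associated genes, 4 were tested, edgeR called 0, and 2 were lower at an unadjusted p under 0.05 and by DESeq2, again against 11.5% and 6.5% over the table. Fn1, fibronectin, on which collagen fibrils assemble, was at 1608 and 1437 CPM in HepLPC, against 7676 and 9431 CPM in NPC_LPC (edgeR log2 fold change -2.49 with SE 0.31, adjusted p = 0.0504; DESeq2 adjusted p = 1.25e-17). Its call moved with the settings, and edgeR called it with RLE or upper-quartile scaling factors, and also when either NPC_LPC library was left out. Tnxb, a tenascin that binds fibrils, had 6 and 7 counts in HepLPC and 52 and 59 in NPC_LPC. It is 1 of the 2 genes counted as lower and passed the count filter only through NPC_LPC, where it is high, so no p is given for it. Thbs1 overlapped, at 361 and 253 CPM in HepLPC and 264 and 762 CPM in NPC_LPC (edgeR adjusted p = 0.452). Decorin, lumican and biglycan (Dcn, Lum and Bgn), the proteoglycans of collagen fibrils, were at most 40 counts in any library.

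Epithelial markers stood apart by value, with none past the edgeR threshold. Hnf4a, a hepatocyte transcription factor, was at 235 and 249 CPM in HepLPC and 27.4 and 49.8 CPM in NPC_LPC, and the keratin gene Krt19 at 1434 and 885 CPM in HepLPC and 111 and 275 CPM in NPC_LPC (edgeR adjusted p = 0.0570 and 0.0841). The 8 endothelial markers summed to 7.44 and 6.20 CPM in HepLPC and 2.41 and 3.61 CPM in NPC_LPC, mostly Kdr, with Clec4g at 0 and Pecam1 and Lyve1 at no more than 3 counts. The 7 leukocyte markers summed to 25.2 and 15.3 CPM in HepLPC and 82.2 and 21.4 CPM in NPC_LPC, mostly Cd68, with Clec4f and Cd3e at 0. The 7 mesothelial markers summed to 1636 and 1707 CPM in HepLPC and 723 and 507 CPM in NPC_LPC, mostly Krt19 and Msln, and Krt19 carried that order. Of the 5 tested, 2 were above in both HepLPC libraries, namely Krt19 and Upk3b, against 27.9% of all tested genes. Upk3b passed the count filter only through the HepLPC libraries, where it is high. Lrrn4, not tested, was also above, at no more than 3 counts. Msln overlapped, at 198 and 785 CPM in HepLPC and 573 and 231 CPM in NPC_LPC, and so did Wt1, Upk1b and Gpm6a. Wt1 had 3 and 13 counts in HepLPC and 93 and 14 in NPC_LPC, and Upk1b had 55 and 601 against 606 and 8. The 7 hepatocyte markers summed to 244 and 252 CPM in HepLPC and 27.7 and 50.1 CPM in NPC_LPC, with Cyp2e1 at 0 in all. The 7 cholangiocyte markers summed to 4774 and 2215 CPM in HepLPC and 9504 and 4782 CPM in NPC_LPC, mostly Spp1 and Krt19, a gene that the mesothelial list also holds. The part of these cell types in the collagen levels was not tested.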

How the data were processed

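RNA-seq of 2 HepLPC and 2 NPC_LPC libraries was analysed from 1 deposited table per library. Per the labels' protocols, paired-end libraries were made with a stranded mRNA kit. Per the submitters' processing notes, Trimmomatic, HISAT2, Cufflinks, HTSeq and DESeq were used on mm10; their versions, the gene models and whether counting used the strand are not stated in the labels or headers. The deposited values are raw read counts and FPKM for each gene, per the file headers. Counts were whole numbers with totals of 17575998 to 20625957 per library.

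Counts were tested with edgeR 4.0.16 (quasi-likelihood, R 4.3.3) after TMM scaling (factors 0.980 to 1.02) and filterByExpr, which left 12332 genes, with group as the only term. P-values are two-sided and Benjamini-Hochberg adjusted over all tested genes, with 0.05 as the threshold. SEs came from the F statistic. Levels are compared between genes in FPKM and between libraries in CPM. A floor of 3 counts equals 0.148 to 0.169 CPM and covers counting error only, since PCR duplicates are not independent molecules. Nothing in the labels says that replicates were separate mice or cultures, so p-values measure the spread between these libraries, which may be technical.

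Every tested collagen is named, and of the other lists the 3 members with the smallest p; any other gene in the text was picked with its values known. The members and lists were chosen with earlier results of these data known. Alternatives were other scaling factors and filters, DESeq2 1.42.0, limma-voom (limma 3.58.1), limma on log2 FPKM, chromosome medians as offsets, the replicate number as a block, and leaving out each library. Gene positions and start windows come from RefSeq (GRCm38.p6, the assembly of mm10), which matched all 44 collagens by symbol. Start windows were found for 35 of them (16 of the 19 tested), and exon overlaps come from GENCODE.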

Additional observations from a re-analysis of the deposited data

How the results depend on the processing

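The number of genes called over the whole table (53) was 593 with no filter beyond 1 count, 1517 with DESeq2, 5 with limma-voom, 1 on log2(FPKM + 0.1) with no filter, and 0 to 377 when a library was left out. Collagens called lower (1) numbered 9 with no filter, 9 with DESeq2, 0 with limma-voom, 0 on log2(FPKM + 1), 0 on log2(FPKM + 0.1) with no filter, and 0 to 4 when a library was left out; the collagens called higher (0) numbered 1 with DESeq2. Genes called in the 5 related lists (0) numbered 1 with RLE factors, upper-quartile factors, a mean CPM of at least 1, chromosome medians as offset, log2(FPKM + 0.1) with a mean of at least 0.1, or log2(FPKM + 1). They numbered 6 with no filter, 11 with DESeq2 and 0 to 5 when a library was left out. The median log2 fold change of tested collagens (-1.36) was -0.37 on log2(FPKM + 0.1) with no filter, where 37 collagens entered, and -2.57 to -1.62 when a library was left out. The summed collagen levels of each class kept their sign under every alternative run, from -4.67 to -1.11 on the log2 scale when a library was left out. Of 271 values of single collagens under alternatives, 10 turned in direction, in 5 genes that were not called. Their log2 fold changes when a library was left out ran from -0.84 to 0.043 for Col18a1, -1.96 to 1.88 for Col4a4, -1.99 to 0.094 for Col1a1, -1.87 to 0.77 for Col2a1 and -6.28 to 1.74 for Col11a2. Col2a1 was at 0.0089 on log2(FPKM + 0.1) with no filter. Col11a2 was at 0.015 with upper-quartile factors and at 0.069 on log2(FPKM + 0.1) with no filter. The cause was not tested.

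Whether same-numbered libraries were paired is not known. The deviations of same-numbered libraries from their group means correlated at r = -0.017 over 12332 genes. With 2 libraries per group, this value cannot settle whether they were paired. With the replicate number as a block, edgeR called 136 genes, 3 collagens lower (Col12a1, Col16a1 and Col4a2) and 2 genes of the related lists. None of the 25 collagens that were not tested exceeded 41 counts in a library, and 7 of them had no count in any. The part of sequencing depth in this was not tested.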

Other observations

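Genes outside the collagen family whose proteins carry a collagen-like stretch, or are named as collagen relatives, were listed after the collagen values had been seen. Of 33 such genes, 12 had no count in any library and 8 could be tested, with a median log2 fold change of -1.97. The edgeR test called 1 of the 8 lower in HepLPC and 0 higher, where 0.203% and 0.227% of all tested genes were called. At an unadjusted edgeR p under 0.05, 4 were lower and 0 higher, against 11.5% and 10.4% of all tested genes. DESeq2 called 3 lower and 0 higher, against 6.5% and 5.81%. The gene that edgeR called was Scara3, a scavenger receptor. Scara3 was at 2.67 and 3.66 CPM in HepLPC, against 100.4 and 157 CPM in NPC_LPC (edgeR adjusted p = 0.0265). Ccbe1, a secreted factor of lymphatic growth, was at 39.5 and 41.8 CPM in HepLPC, against 71.7 and 574 CPM in NPC_LPC (edgeR adjusted p = 0.156). C1qtnf6 had the opposite sign, at 16.7 and 46.5 CPM in HepLPC against 3.51 and 13.9 CPM in NPC_LPC, with groups that did not overlap and an edgeR adjusted p of 0.245. The complement genes C1qa, C1qb and C1qc, which macrophages express, had at most 1 count in any library.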
